A study of Aspergillus niger with 6 samples.

Results

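Gene IDs with no read in any library were examined in RNA-seq data from mycelium of Aspergillus niger, a filamentous fungus used for industrial organic acid production. The IDs were chosen by 1 rule: the name begins with ANI_1_ and the count is 0 in all 6 libraries. There were 159 such IDs among 10489 that begin with ANI_1_ (1.52%) and 10505 in the whole table. They are called silent IDs here, which says only that no read was assigned to them. Because their counts chose them, their level is a description and was not tested.

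All libraries came from 1 strain of the ATCC 1015 background, labelled RG0095 in the titles and GR0095 elsewhere. Its genotype lists a deletion of oahA (oxaloacetate acetylhydrolase, which forms oxalate). Listed beside that deletion are pyc (pyruvate carboxylase), mdhC (malate dehydrogenase) and Pgpd-C4T318. Both states carry all of these, and no unmodified strain was compared. The seed state was mycelium from a 20 h seed culture, and the fermentation state was that mycelium after transfer to fermentation medium, at 72 h, with 3 biological replicates of each. Medium and time differ together, so their effects cannot be told apart.

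A fungal mycelium does not transcribe every gene at once. In Aspergillus, clusters of secondary metabolite genes often stay silent in laboratory media, and genes for asexual spores are switched on in spore-bearing structures rather than in submerged hyphae. Libraries from a kit for mRNA also see only the RNA that the kit keeps. The table pairs no ID with a gene name, and 0 ANI_1_ IDs were found among the locus tags, symbols and synonyms of RefSeq's 14404 genes for assembly ASM285v2. Which of these gene classes the silent IDs belong to was therefore not analysed here, and mycelial marker genes could not be looked up. Apart from the listed deletion of oahA, whether each locus is present in this strain is not given in the sources used here. Which ID stands for oahA could not be looked up.

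The libraries held between 16828913 and 20267348 counts, and a count of 0 sets only an upper limit. At 3 counts, the limit used here, it allows 0.148 to 0.178 CPM (counts per 1000000 counts of the library) in a single library. Over the 3 seed libraries it allows 0.0528 CPM, over the 3 fermentation libraries 0.0576 CPM and over all 6 libraries 0.0276 CPM. The median ANI_1_ ID stood at 21.6 CPM, 784 times that last limit. These limits cover counting error only. CPM is not corrected for gene length, which the files do not give, so levels of different IDs below are levels of counted reads and not of transcripts.

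No gap in counts lay between the silent IDs and the IDs with few counts. Whether some silent IDs form a class of their own cannot be told from this, because IDs with few counts fill the scale either way. Just outside the rule stood 96 IDs with exactly 1 count over the 6 libraries, 62 with 2, 76 with 3 and 63 with 4. Of the 96 single reads, 47 were in seed and 49 in fermentation libraries. By library they numbered from 11 in fermentation replicate 1 to 20 in fermentation replicate 2. Of the IDs with 2 counts, 29 had both in seed, 16 had both in fermentation and 17 had 1 in each state. Single reads were thus found in both states and in every library.

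**Figure D1:**
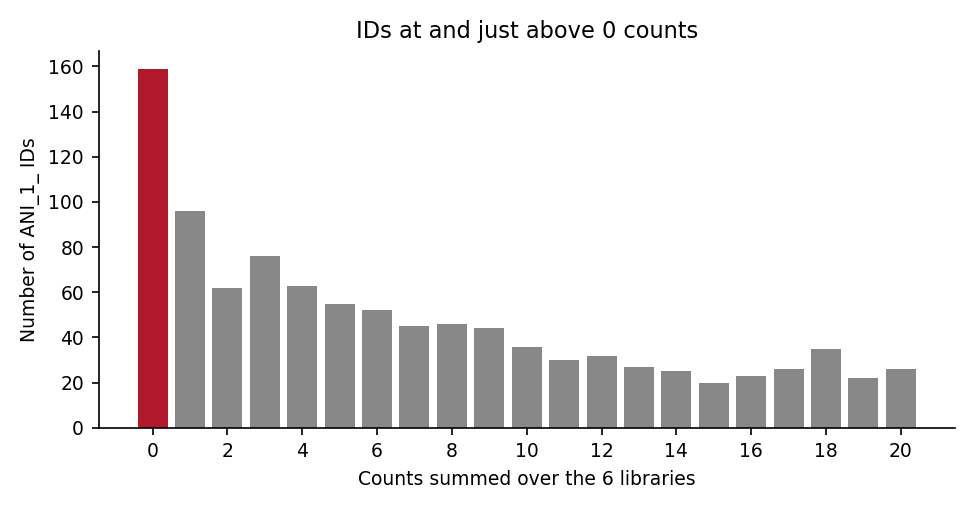
Number of ANI_1_ IDs (vertical axis) by their counts summed over the 6 libraries (horizontal axis, 0 to 20). The red bar is the 159 silent IDs, and the grey bars go from 96 IDs at 1 count to 26 at 20 counts without an empty bar.

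How many IDs are silent depends on the depth by construction. If 75% of all counts were kept, 188 IDs would be expected at 0, and 239 and 361 if 50% and 25% were kept (exact hypergeometric expectation). The direction was set in advance, because fewer of the same counts can only raise the number. The sizes show that it had not levelled off at this depth. Most IDs were far from 0 counts, with 9309 counted in all 6 libraries and 172, 149, 186, 219 and 295 counted in 1, 2, 3, 4 and 5 of them.

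Counting the IDs at 0 library by library gave 585, 582 and 592 in seed and 731, 542 and 669 in fermentation. The silent IDs add the same 159 to every one of these numbers, so any difference between libraries comes from other IDs alone. Without the silent IDs the numbers were 426, 423 and 433 in seed and 572, 383 and 510 in fermentation. The seed libraries were alike, while the fermentation libraries lay on both sides of them. With the silent IDs included, the means were 586 ± 5.13 and 647 ± 96.3 (SD, n = 3). A two-sided exact permutation test gave p = 0.4, where 3 against 3 libraries cannot go below 0.1. This test says nothing about the silent IDs, which the rule fixed at 0 in both states. With each library thinned to the smallest the difference went from 61 to 43.1 IDs (exact permutation p = 0.5). It was 19.2 IDs without fermentation replicate 1 and 114 without fermentation replicate 2.

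Silent IDs were found under every one of the 18 endings, which are the last 3 digits of an ID. The digits before the ending are read here as a number, and the file does not state what either part means. The share of an ending's IDs that were silent ran from 0.508% (4 of 787, ending 184) to 5.41% (4 of 74, ending 174), with a median of 1.21%. Endings 104 and 094 held the most, 27 of 739 and 26 of 836 IDs. Together they had 33.3% of the silent IDs but 15.03% of all ordered IDs. At the other extreme, ending 024 had 7 silent IDs among 1129, and endings 044 and 154 had 1 each.

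Other IDs that were barely counted were spread over the endings in a partly similar order. IDs with 1 to 10 counts over the 6 libraries, none of which is silent, made up 10.8% of ending 174, 9.20% of ending 104 and 6.58% of ending 094, but 3.54% of ending 024 and 3.16% of ending 154. Some endings departed from this order. Ending 054 had 10.3% such IDs at a silent share of 2.05%, and ending 184 had 5.72% at the lowest silent share. Over the 18 endings the silent share and the share with 1 to 10 counts went together (Pearson r = 0.75, Spearman rho = 0.69). Both shares come from the same libraries at the same depth, so this is a description.

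**Figure D2:**
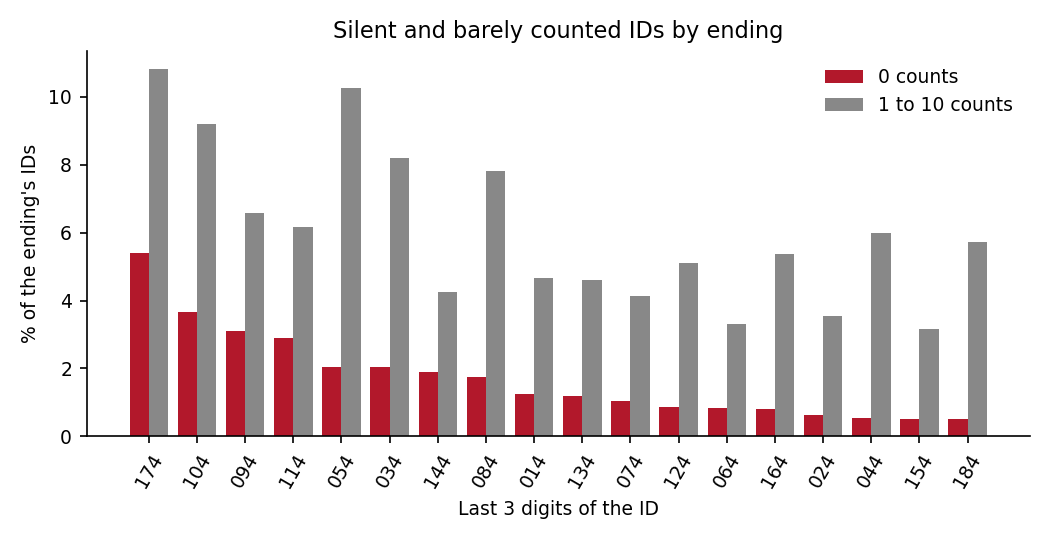
Share of each ending's IDs (vertical axis, percent) with 0 counts (red) and with 1 to 10 counts (grey) over the 6 libraries, with the endings in order of the silent share. Endings 174, 104 and 094 lead in red at 5.41%, 3.65% and 3.11%, and the tallest grey bars are those of 174, 054 and 104.

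The silent IDs lay almost wholly among the higher ID numbers. Each number was divided by the highest number of its ending, and the scale was cut into 20 bins. The 11 bins up to 0.55 held 10 silent IDs among 4220, with 0 to 4 per bin. The 8 bins from 0.6 upward held 137 among 5769, with 12 to 29 per bin. The median level of all IDs changed along the same scale. It was 39.4 to 65.8 CPM in each lower bin and 4.93 to 11.1 CPM in each upper bin.

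**Figure D3:**
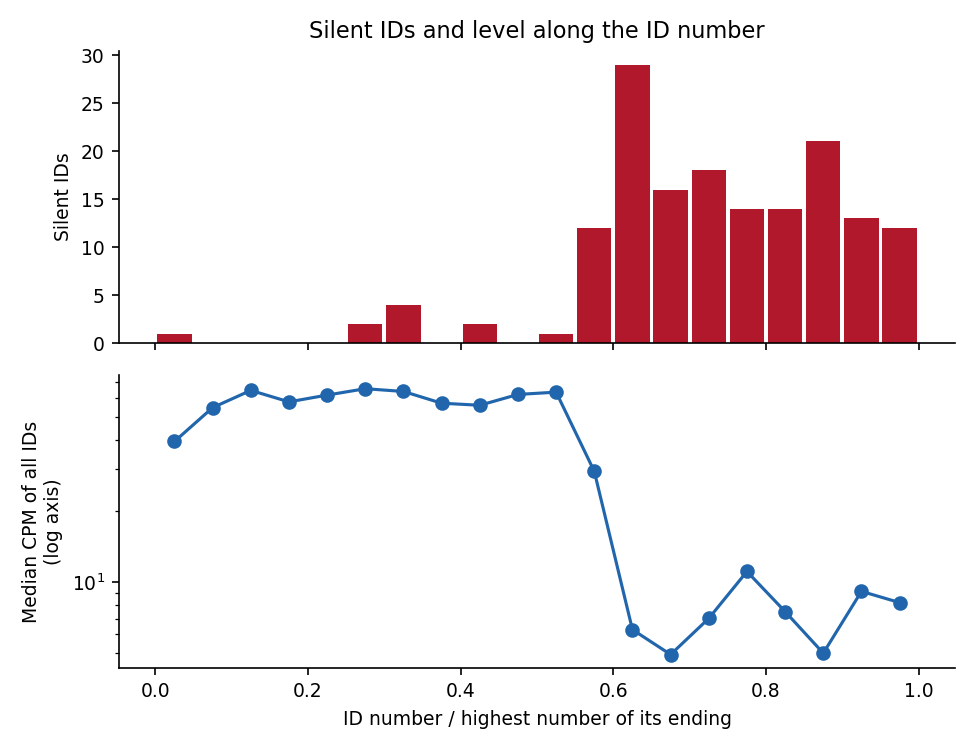
Top, silent IDs (count per bin) and, bottom, median CPM of all IDs (log axis), against the ID number divided by the highest number of its ending, in 20 bins. From 0.6 upward each bin holds at least 12 silent IDs and the median is at most 11.1 CPM, against at most 4 silent IDs and at least 39.4 CPM per bin up to 0.55.

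The ID numbers themselves change in character at about the same place. All ordered IDs have even numbers. Low numbers were used sparsely in the table, between 30.6% and 57.04% of the even numbers of an ending, while high numbers were used densely, between 83.3% and 94.3%. The change point was set for each ending from the numbers alone, with no counts, after the pattern had been seen, and it fell between 0.504 and 0.653 of the highest number. The dense range held 147 of the 159 silent IDs (92.5%) and 57.8% of all ordered IDs. In it 2.43% of 6057 IDs were silent, against 0.271% of 4425 in the sparse range.

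This held ending by ending. The silent share was higher in the dense range in 17 of 18 endings, and the exception was ending 044, whose only silent ID was in the sparse range. The median CPM of counted IDs in the dense range was below the median of the sparse range in 18 of 18 endings, and IDs with 1 to 10 counts had the higher share there in 18 of 18. In ending 104, where silent IDs were most frequent among the larger endings, the medians were 2.60 CPM in the dense and 55.7 CPM in the sparse range. Without endings 094 and 104 the dense range still had 95 of the other endings' silent IDs (89.6%).

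Only 12 silent IDs were in the sparse range. ANI_1_1008124 and ANI_1_1512184, singled out after their positions were seen, lay 4 and 10 below the first number of their ending's dense range. ANI_1_892014 and ANI_1_894014 were next to each other. Within the dense range silent IDs were not gathered at one end. Cut into 10 equal parts by order within each ending, it held 7 to 22 silent IDs per part, with 21 in the first and 10 in the last. The even numbers on both sides were in use for 77.6% of the silent and 81.8% of the counted IDs of the dense range. In the sparse range this was so for 1 of the 12 silent IDs (8.33%) and for 32.6% of the counted IDs. Whether silent IDs lie beside missing numbers more often was not tested.

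Silent IDs lay next to other silent IDs in part. With IDs in the order of their numbers and each ending taken by itself, 40 of the 159 (25.2%) had a silent ID directly before or after, against 263 of 10323 counted IDs (2.55%). Within the dense range the shares were 25.9% of silent and 4.11% of counted IDs. IDs with 1 to 10 counts stood between them, at 14.98%. IDs of the same ending share more than their order, so they are not independent and the shares were not tested. In 12 of the 17 endings with a silent ID in the dense range, the share was higher for the silent IDs, and the other 5 endings had no such pair.

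The runs were short. There were 119 silent IDs that stood alone, 17 pairs and 2 runs of 3. In 18 of the 19 pairs and runs the numbers followed each other with no even number left out, and 18 of the 19 were in the dense range. The first run of 3 was ANI_1_2154014, ANI_1_2156014 and ANI_1_2158014. The second was ANI_1_2144024, ANI_1_2146024 and ANI_1_2152024, in which 2 even numbers are not in the table. By the naming rule, the pairs ANI_1_892014 with ANI_1_894014 and ANI_1_2228024 with ANI_1_2230024 come next in order. All of these have 0 counts in each of the 6 libraries.

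The IDs beside the runs of 3 were themselves barely counted. ANI_1_2152014, just before the first run, had 0, 1 and 2 counts in seed replicates 1, 2 and 3 and 0 in every fermentation library. ANI_1_2160014, just after it, had 3, 1 and 1 counts in seed and 0, 1 and 0 in fermentation. ANI_1_2148014, 1 place further out, had 2, 0 and 0 in seed and 0, 2 and 0 in fermentation. This stretch of 6 IDs therefore held 13 counts in all among the 108878317 of the table. Beside the second run, ANI_1_2142024 had 2, 5 and 9 counts in seed and 3, 0 and 1 in fermentation. ANI_1_2154024 had 7, 5 and 8 counts in seed and 4, 10 and 7 in fermentation. No neighbour of the runs of 3 passed the low-count filter, so no change between the states was tested there.

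Silent IDs also lay in stretches of barely counted IDs. Of 22 stretches with at least 4 successive IDs of at most 10 counts each, silent IDs included, 18 held a silent ID, and these 18 had 85 IDs, 37 of them silent (23.3% of all silent IDs). All 18 were in the dense range, and the longest had 7 IDs, of which 2 were silent. The silent IDs were themselves 159 of the 734 IDs with at most 10 counts, and they helped to define the stretches. A stretch could therefore hold a silent ID for that reason alone. The share of the other IDs with at most 10 counts in such stretches was not compared, so these numbers are a description. Of the 159 silent IDs, 59 had no directly adjacent ID with enough reads to be tested, and 31 had a tested ID at every side. Of all ordered IDs 85.4% were tested, and 77.7% of those in the dense range. The IDs adjacent to counted IDs were not examined in this way, so 59 and 31 are a description.

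The nearest counted ID on each side of a silent ID or run was then examined, 263 IDs in all, each taken once. Their median was 0.441 CPM, against 22.6 CPM for all counted IDs. Under 1 CPM stood 155 of them (58.9%, against 16.5% of all counted IDs), and over 100 CPM only 6 (2.28%, against 19.9%). The medians by library were 0.475, 0.395 and 0.455 CPM in seed and 0.357, 0.451 and 0.342 CPM in fermentation. The states overlapped, because fermentation replicate 2 lay among the seed libraries. The corresponding medians over all counted IDs were 21.1 to 22.5 CPM in seed and 17.7 to 21.4 CPM in fermentation.

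Of the 263, 243 lie in the dense range, where levels were lower in general. The part of that range in the neighbours' low level was not tested. Within the dense range the neighbours had a median of 0.408 CPM and the other counted IDs 9.08 CPM. The neighbours were lower in 17 of the 17 endings that had any there. In ending 094, which had 46 neighbours, the medians were 0.694 CPM for them and 7.77 CPM for the others. In ending 034 they were closest by ratio, at 2.72 and 6.54 CPM among 18 neighbours. The 20 neighbours in the sparse range had 15.3 CPM, against 59.1 CPM for the other counted IDs there.

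The level went up with distance from a silent ID. In the dense range the median was 0.408 CPM at 1 place, 1.09 at 2 places, 1.82 at 3 places and 3.27 at 4 places. It was 6.84 CPM at 10 places and 14.1 CPM beyond 20 places. The order was not strict, with 2.57 CPM at 5 places and 4.15 at 8 after 6.44 at 7. The quartiles overlapped throughout, and IDs at 1 place ran from 0.06297 to 2.69 CPM between quartiles. The share of IDs with 1 to 10 counts went from 31.7% at 1 place to 17.4% at 2 places and 5.44% beyond 20 places. Endings rich in silent IDs also had lower levels in general, and their part in this trend was not tested.

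**Figure D4:**
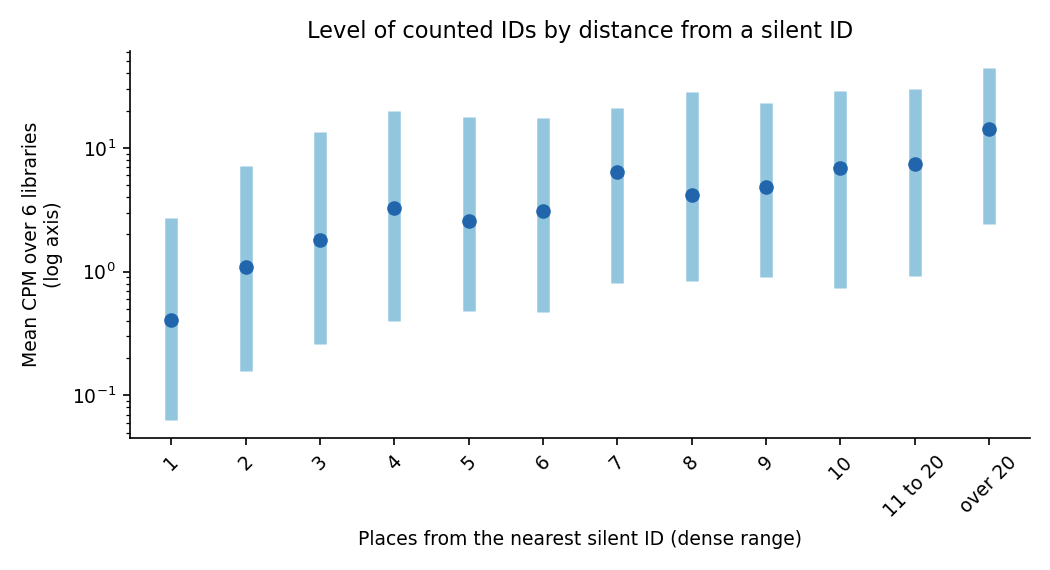
Mean CPM over the 6 libraries (log axis) of counted IDs in the dense range, by places from the nearest silent ID. Points are medians and bars run between the quartiles. The median rises from 0.408 CPM at 1 place to 14.1 CPM beyond 20 places, with small reversals in between.

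The question of the series, which IDs change between seed and fermentation, can be put to the neighbours that had enough reads. Of the 263, 128 were tested and 135 did not pass the low-count filter. Of the tested neighbours 78 were called, 34 higher and 44 lower in fermentation (quasi-likelihood test of edgeR, adjusted over all tested IDs by Benjamini-Hochberg, called under 0.05). That is 60.9% of the tested neighbours, where 66.9% of all 8963 tested IDs were called, 33.9% higher and 33.0% lower. The neighbours' shares were 26.6% higher and 34.4% lower. Within the dense range 63.7% of the tested neighbours were called, against 63.6% of all tested IDs there. A share of calls close to the background is no result about the neighbours.

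The median absolute log2 fold change was 0.96 in the tested neighbours and 0.67 in all tested IDs, with median standard errors of 0.28 and 0.15. Calls of at least 4-fold made up 26 of the 128 (20.3%), against 10.1% of all tested IDs and 13.4% in the dense range as a whole. By distance from a silent ID in the dense range, the share was 21.2% at 1 place. From 2 to 10 places it lay between 12.2% (9 places) and 21.97% (4 places), with 17.9% at 2 places. Beyond 20 places it was 10.8%. The median absolute log2 fold change by distance was 1.02 at 1 place, 0.72 at 2 places, 1.04 at 4 places and 0.65 beyond 20 places. Of the 26, 12 were higher and 14 lower, where the background was 5.67% and 4.38%. Tested neighbours had a median of 3.90 CPM and all tested IDs 31.1 CPM, and the part of that lower level in the sizes of change was not tested. The median log2 fold change was -0.20 in the neighbours, 0.01 in all tested IDs and 0.05 in the dense range. By distance in the dense range it was -0.20 at 1 place. From 2 to 10 places it lay between -0.11 (9 places) and 0.21 (5 places), with 0.04 at 2 places. Upper-quartile scaling, which moves all IDs down by 0.15, gave -0.35 in the neighbours and -0.14 in all tested IDs. With 1 library left out the neighbours' median ran from -0.24 without seed replicate 3 to -0.079 without seed replicate 2, with -0.11 without seed replicate 1 and -0.12 without fermentation replicate 3.

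**Figure D5:**
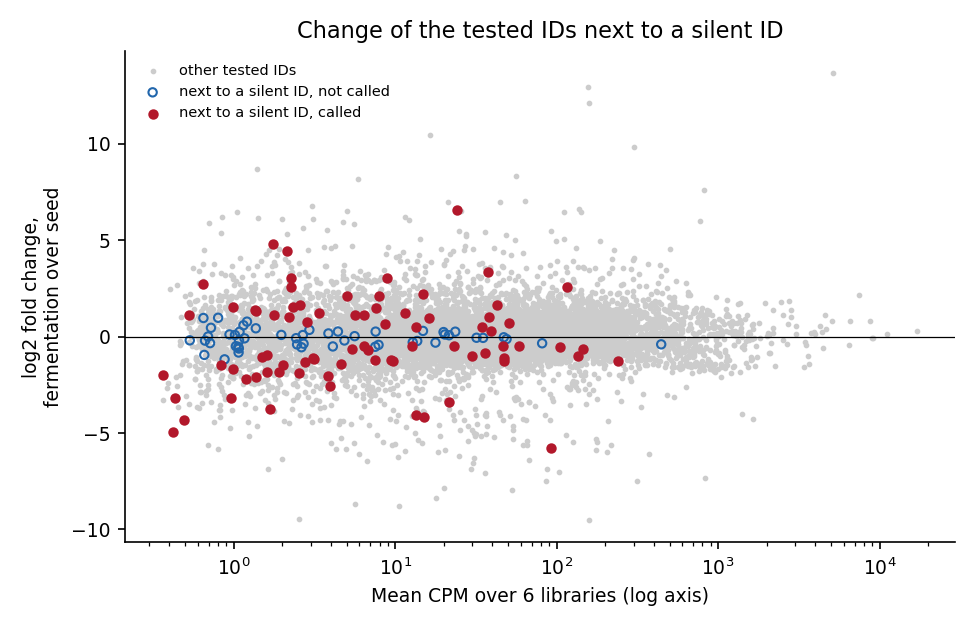
log2 fold change, fermentation over seed, against mean CPM (log axis) for all tested IDs (grey) and for the 128 tested IDs next to a silent ID, called (red) or not called (blue rings). The neighbours sit mostly at the left, at a median of 3.90 CPM, and on both sides of 0, with 34 called higher and 44 called lower.

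Some neighbours of silent IDs differed strongly between the states. ANI_1_1856144, directly after the silent ANI_1_1854144, had 0.528, 0.740 and 0.341 CPM in seed replicates 1 to 3 and 47.4, 48.5 and 47.6 CPM in fermentation. The seed libraries were all below 1 CPM and the fermentation libraries were nearly equal. Its mean rose 89.2-fold, and the fitted log2 change was 6.55 ± 0.21 (SE) at an edgeR adjusted p = 2.05e-07.

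ANI_1_312114, the next counted ID after the silent ANI_1_306114 in the sparse range, had 8.03, 7.75 and 6.71 CPM in seed and 137, 29.2 and 36.4 CPM in fermentation. All fermentation libraries were higher, and replicate 1 stood far above the other 2. The fitted log2 change was 3.34 ± 0.63 (SE) at an edgeR adjusted p = 0.00158, and it was 2.16 without fermentation replicate 1 (edgeR adjusted p = 6.93e-06).

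Large falls were found as well. ANI_1_1824104, just before the silent pair that begins with ANI_1_1826104, had 174, 179 and 192 CPM in seed and 4.16, 2.88 and 2.34 CPM in fermentation. The states did not overlap, and seed was 58.2-fold higher (fitted log2 change -5.75 ± 0.23 SE at an edgeR adjusted p = 5.27e-07). ANI_1_2124014, directly after the silent ANI_1_2122014, had 24.2, 28.1 and 33.1 CPM in seed and 1.07, 2.09 and 1.31 CPM in fermentation. It too did not overlap between the states, with a fitted log2 change of -4.16 ± 0.23 (SE) at an edgeR adjusted p = 2.31e-06. These 4 IDs have the largest fitted changes among the called neighbours whose mean reached 10 CPM and whose states did not overlap, of which 12 rose and 15 fell. The states did not overlap for 63.3% of the tested neighbours, against 70.7% of all tested IDs.

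A silent ID could also sit beside an abundant one that was not called. ANI_1_260044, directly before the silent ANI_1_262044 in the sparse range, was the most abundant neighbour. It had 481, 531 and 539 CPM in seed and 251, 449 and 413 CPM in fermentation. Every fermentation library was below every seed library, yet the log2 fold change of -0.40 ± 0.16 (SE) had an edgeR adjusted p = 0.0583. It was called lower under upper-quartile scaling (-0.55), with no filter (-0.43), by DESeq2 (-0.39), with a replicate block (-0.42) and without fermentation replicate 2 (-0.53). It was not called under the other alternatives, and was -0.23 without fermentation replicate 1 (edgeR adjusted p = 0.0632), the library at 251 CPM.

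ANI_1_1582134, just before the silent pair that begins with ANI_1_1584134, had 88.6, 92.3 and 104 CPM in seed and 111, 41.9 and 50.2 CPM in fermentation. The states overlapped only through fermentation replicate 1. The fitted log2 change was -0.34 ± 0.37 (SE) at an edgeR adjusted p = 0.433, and without that library it was -1.01 and called (edgeR adjusted p = 0.000235). It was -0.071 without fermentation replicate 2 (edgeR adjusted p = 0.863) and -0.16 without fermentation replicate 3 (edgeR adjusted p = 0.755).

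Neighbours were also often counted in 1 state alone. Of the 263, 28 (10.6%) had reads in seed only and 17 (6.46%) in fermentation only, against 1.60% and 1.23% of all counted IDs. At levels this low, a 0 over 3 libraries allows up to 0.0528 CPM in seed or 0.0576 CPM in fermentation, so these IDs were not shown to be off in the other state. In each library 19.01% to 27.4% of the neighbours were at 0, highest in fermentation replicate 1, against 3.71% to 5.54% of all counted IDs.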

How the data were processed

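Raw read counts per gene ID, whole numbers without normalization, were deposited by the authors as 1 table with 1 column per library. Stranded mRNA libraries were made from total RNA, per the labels' protocols. Per the submitters' processing notes, the tools were Bowtie2, Cufflinks, DESeq, HISAT2, HTSeq, SAMtools, StringTie and Trimmomatic, with no version or role. Not given in the sources used here are the build, the annotation and the strand setting, so overlapping, antisense or near-identical genes may share or lose reads.

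Silent IDs were found by their 0 counts. The 7 ANI_1_ IDs with no number before 3 last digits were left out of the order, and each of them was counted. The 16 IDs with another prefix, 4 of them at 0, are not members. All libraries entered 1 fit across all IDs with edgeR 4.0.16 in R 4.3.3 (quasi-likelihood test, TMM, filterByExpr with a minimum count of 10 and minimum total of 15, group as the only term), which tested 8963 IDs. Standard errors are the absolute log2 fold change over the square root of F. DESeq2 1.42.0 and other scalings, filters and left-out libraries were alternatives. The fit was also run on simulated data, in which only a small part of the IDs changed and all shared 1 fixed dispersion. In the deposited data 66.9% of tested IDs were called, so that run does not vouch for the calls made here.

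Named IDs are the members of the first 4 pairs or runs of silent IDs in order. Others were taken from the nearest counted IDs of all silent IDs. They are the 2 largest rises and 2 largest falls that were called, had at least 10 CPM and did not overlap, and the 2 most abundant not called. Members, lists and tests were chosen with earlier results of these data known. Replicate libraries differed by more than sampling noise (chi-square per degree of freedom 11.8 to 80.7), so each counted as 1 replicate. The labels call them biological replicates without naming separate cultures.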

Additional observations from a re-analysis of the deposited data

How the results depend on the processing

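Allowing at most 1, 2, 3 or 5 counts over the libraries in place of 0 gave 255, 317, 393 and 511 silent IDs, of which 232, 354 and 459 were in the dense range at 1, 3 and 5 counts. Keeping 50% or 25% of the counts gave 239 and 361, both by construction. Leaving out 1 library gave 181 to 195 silent IDs, 166 to 181 of them in the dense range. Starting that range at 0.5 or 0.6 of the highest number gave 150 and 137, and leaving out the 2 endings with most silent IDs gave 95. The silent IDs next to another were 64 and 147 when 1 and 3 counts were allowed, 39 when only successive numbers counted, and 42 to 53 with 1 library left out. The neighbours called were 159 and 456 with the nearest 2 and 5 on each side (57.2% and 63.1% of those tested), and 138 (58.5%) with the nearest tested ID, which enlarge the list by construction. With 1 library left out they were 64 (without seed replicate 2) to 86 (without fermentation replicate 1), or 46.7% and 63.7% of those tested, where 56.4% and 67.1% of all tested IDs were called.

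Same-numbered libraries deviated together at r = 0.0546, 0.0565 and 0.0758 across IDs, and no label says what a number shares. With a replicate block 74 neighbours were called, 57.8% of those tested, against 65.7% of all tested IDs. The named IDs kept their direction under all alternatives, and the 4 called ones kept their call. The dense range and the count of IDs at 0 per library, with their alternatives, were added after the data were seen. Depth limits all statements on IDs under about 10 counts per library.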
